A study of Mus musculus with 24 samples.

Results

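The comparison described here asks for which genes loss of REST had an effect of another size, or of the opposite sign, in neuronal progenitors than in the embryonic stem cells they came from. It rests on 12 of the 24 arrays of the study, 3 in each of 4 groups of mouse cells of the strain Black Agouti 129: embryonic stem cells (ES) labelled RESTko or RESTwt, and the neuronal progenitors (NP) differentiated from them, labelled RESTko or RESTwt. Of the remaining arrays, 6 are of terminal neurons, 3 labelled RESTko and 3 labelled RESThet, which enter the fit for its estimate of the spread. A further 6 are of a wildtype course in cells of a mixed 129Sv-C57Bl/6 strain on another platform. Of these, 4 at ES and NP serve as an outside wildtype step. The labels call the 3 arrays of a group, lettered a, b and c, biological replicates without saying that they came from separate cultures, so p-values measure only the spread between these arrays. The sources used here do not say how REST was deleted or how many clones each genotype stands for. The labels name no added agent for these groups.

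REST, a zinc finger protein also called NRSF, is a transcriptional repressor. It binds the RE1 element, a motif of a pair of short boxes a few bases apart, and recruits the corepressors RCOR1 and SIN3A with histone deacetylases. It is best known for keeping genes of synapses, secretory granules and ion channels low in cells that are not neurons, and its level drops as stem cells become neurons.

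Throughout, the effect at a stage is the difference of log2 signals, RESTko minus RESTwt, and the stage difference is the effect at NP minus the effect at ES, which equals the step from ES to NP in RESTko cells minus that step in RESTwt cells. A positive stage difference thus means that RESTko stood higher against RESTwt at NP than at ES. Each of the 19938 measured genes was tested with limma over the whole table, and a gene was called at an adjusted p under 0.05. Array values are given in the order of the letters a, b and c.

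The stage labels held in the defining markers. The stem cell factor gene Pou5f1 lay between 11.26 and 11.40 on the 6 ES arrays and between 6.06 and 7.98 on the 6 NP arrays, and the progenitor factor gene Pax6 between 4.55 and 4.92 at ES and between 8.56 and 8.95 at NP. Of the 6 markers of ES and the 6 of NP, 0 had a called stage difference. The gene Rest itself measured 8.95, 8.99 and 8.95 on the ES RESTwt arrays and 8.63, 8.53 and 8.66 on the ES RESTko arrays, and 7.48, 7.51 and 7.45 on the NP RESTwt arrays and 7.43, 7.40 and 7.57 on the NP RESTko arrays. Its RESTko arrays thus lay below the RESTwt arrays at ES, and the genotypes overlapped at NP. Its stage difference of 0.34 missed the threshold (SE 0.10, adjusted p = 0.0508, limma), and it passed in 4 of 23 other settings: without NP RESTko array b (adjusted p = 0.0486), in a trended robust fit (0.0391), without the genes of lowest mean (0.0303) and with array weights (0.0143). Under quantile normalization its adjusted p was 0.154. The exons that the Rest probes cover are unknown here, so every direction below rests on the labels, and RESTko means the arrays labelled so.

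The effect of the knockout differed between the stages for 970 of 19938 genes, which is 4.87% of them. It was more positive at NP for 461 genes (2.31%) and more negative for 509 (2.55%). The median stage difference over all genes was 0.03. The stage difference was at least 1 on the log2 scale for 221 called genes, 67 more positive and 154 more negative, and at least 2 for 18. As background, 1034 genes (5.19%) were higher and 808 (4.05%) lower in RESTko at ES, and 862 (4.32%) were higher and 740 (3.71%) lower at NP. The 9 differences between single RESTko and RESTwt arrays at one stage lay wholly above or below the 9 at the other for 1999 genes (10.0%), among them 922 of the 970 called. Across genes, which are not independent replicates, the effects at ES and NP had a Pearson r of 0.26.

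**Figure D1:**
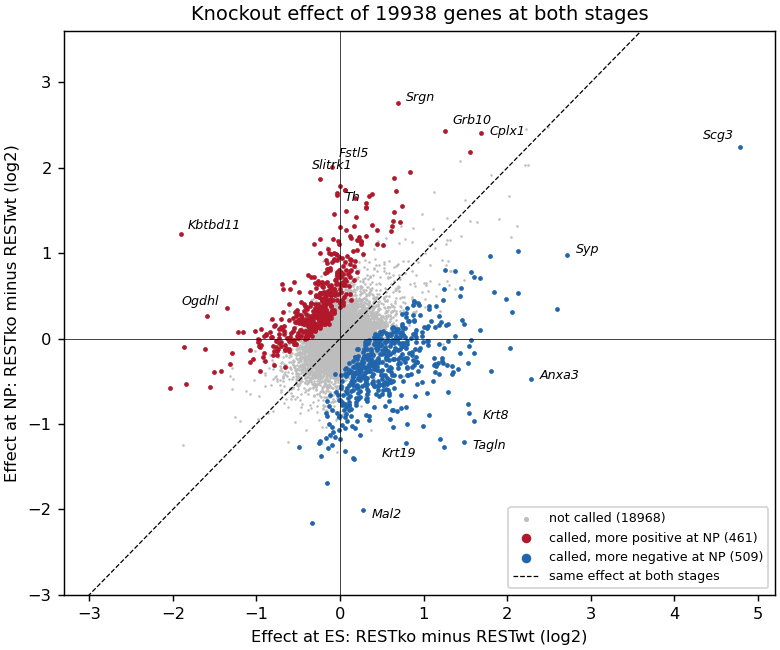
Effect of the knockout at ES (horizontal axis) and at NP (vertical axis), RESTko minus RESTwt in log2 signal, 1 point for each of 19938 genes; red and blue points are the 461 and 509 genes called for a more positive or more negative effect at NP, and the dashed line marks equal effects. The keratins Krt8 and Krt19 and Tagln lie to the lower right, higher in RESTko at ES and lower at NP, and Kbtbd11 lies alone at the upper left.

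Of the 970 genes, 410 were called at ES alone, 358 at NP alone and 89 at neither stage by itself. A further 67 had called effects of opposite sign at both stages, 29 had a smaller effect of the same sign at NP, and 17 a larger one. The estimates at the stages also had opposite signs for 297 of the 410, 265 of the 358 and all 89 of the last class, so these classes say which effects passed the test. Called reversals ran mainly one way: 56 of the 67 were higher in RESTko at ES and lower at NP, against 11 with the opposite order. Conversely, 366 genes were called with the same sign at both stages and had no called stage difference. A call at 1 stage alone is not a changed effect in itself: of 641 genes higher at NP and not called at ES, 212 had a called stage difference, and of 768 higher at ES and not called at NP, 243 did. The count of more positive genes was 285 without ES RESTwt array c and 301 without ES RESTko array a. The count of reversals was 38 to 44 without NP RESTwt array b, NP RESTko array a, ES RESTko array b, ES RESTko array a or ES RESTwt array b, each left out in turn.

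Most measured genes of a list of simple epithelium had a more negative effect at NP. Simple epithelia line ducts and the early embryo, and they are built from keratin filaments, desmosomes and tight junctions. Of the 34 genes, 24 (70.6%) had a called more negative effect at NP, against 2.55% of all genes, and 0 a more positive one. Their median stage difference was -1.03, against 0.03 over all genes. At ES 11 members were higher and 0 lower, with a median effect of 0.18, and at NP 0 were higher and 26 lower, with a median of -0.83. Over all genes 5.19% were higher at ES and 3.71% lower at NP. All of the 11 members called higher at ES had a called stage difference, and 9 of them were reversed. The other 13 of the 24 were lower at NP and had no called effect at ES. Earlier results on these arrays had shown the keratins, so the list is not independent evidence of its direction.

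Krt8 and Krt18 encode the partner keratins of simple epithelial filaments. Krt8 measured 8.36, 8.23 and 7.12 on the ES RESTwt arrays and 9.86, 9.68 and 8.97 on the ES RESTko arrays. At NP it measured 10.34, 10.62 and 10.13 on the NP RESTwt arrays and 9.36, 9.43 and 9.41 on the NP RESTko arrays. The groups did not overlap at either stage, RESTko being the higher at ES and the lower at NP, and both ES arrays of letter c were the lowest of their groups. The effect of Krt8 moved from 1.60 at ES to -0.97 at NP, a stage difference of -2.57 (SE 0.39, adjusted p = 0.000719, limma).

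Krt18 measured 7.69, 7.73 and 6.98 on the ES RESTwt arrays and 9.25, 9.34 and 8.46 on the ES RESTko arrays, and 9.85, 10.14 and 9.59 on the NP RESTwt arrays and 8.93, 8.96 and 9.10 on the NP RESTko arrays. Its groups were apart in the same order as those of Krt8. Between the stages the effect of Krt18 differed by -2.41 (SE 0.30, adjusted p = 0.00014, limma). The keratin gene Krt19 measured 7.59, 7.62 and 6.43 on the ES RESTwt arrays and 8.65, 8.57 and 8.16 on the ES RESTko arrays, and 9.49, 9.69 and 9.33 on the NP RESTwt arrays and 8.41, 8.29 and 8.01 on the NP RESTko arrays. All 3 ES RESTko arrays of Krt19 lay above and all 3 NP RESTko arrays below their wildtype counterparts, with a stage difference of -2.52 (SE 0.34, adjusted p = 0.000328, limma). In steps, these 3 keratins gained 2.46, 2.40 and 2.29 from ES to NP in RESTwt cells, whereas in RESTko cells their steps were -0.11, -0.02 and -0.23.

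Anxa3, an annexin that binds phospholipids with calcium, had the most negative stage difference of the genes named by rank. It measured 6.45, 6.36 and 5.05 on the ES RESTwt arrays and 8.49, 8.38 and 7.84 on the ES RESTko arrays. The NP values were 6.10, 6.50 and 6.12 on the NP RESTwt arrays and 5.55, 5.71 and 6.03 on the NP RESTko arrays. The ES groups were far apart, with RESTwt array c the lowest of all, while the NP groups were apart by less and their effect of -0.47 was not called (adjusted p = 0.498, limma). For Anxa3 the stage difference was -2.76 (SE 0.46, adjusted p = 0.00169, limma).

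The other members of the epithelial list, named here after their values were seen, fall into structural groups. Among desmosome genes, Dsc2 (-2.01), Dsp (-1.12), Jup (-0.78) and Pkp2 (-0.68) were called more negative, while Dsg2 (-0.64, adjusted p = 0.079) and Pkp3 (-0.17, adjusted p = 0.644) did not pass. Among tight junction genes, Cldn6 (-1.68), Cldn4 (-1.02), Cldn7 (-0.92) and Ocln (-0.90) were called. Cldn3 (-0.64, adjusted p = 0.103, limma) and Tjp3 (-0.20, adjusted p = 0.482, limma) were not. Of the regulators, Grhl2, a transcription factor of epithelial identity, was called at -1.46, and so were the splicing factors Esrp1 (-1.30) and Esrp2 (-1.11). The transcription factor genes Grhl3 (-0.72, adjusted p = 0.056, limma) and Elf3 (-0.04, adjusted p = 0.967, limma) were not called. The adhesion genes Epcam (-0.999, adjusted p = 0.0969) and Cdh1 (-1.04, adjusted p = 0.0659) had large differences that missed the threshold in limma. Mal2, of apical transport, is 1 of the 13 called at NP alone: its stage difference of -2.28 came with an effect of -2.01 at NP and of 0.28 at ES that was not called.

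The mean log2 signal of 5 epithelial markers (Krt8, Krt18, Krt19, Epcam and Cdh1) ran from 7.98 to 8.62 on the ES RESTwt arrays and from 9.04 to 9.49 on the ES RESTko arrays. At NP it ran from 9.13 to 9.64 in RESTwt and from 8.26 to 8.45 in RESTko. This mean in part restates the keratins given above, and Epcam and Cdh1 had no called stage difference. In bulk RNA, fewer cells of a type and less RNA per cell cannot be told apart. Marker means of 6 endoderm genes overlapped between the genotypes at both stages (4.12 to 4.35 in RESTwt and 4.25 to 4.32 in RESTko at ES, and 5.51 to 6.17 and 5.67 to 5.99 at NP), as did those of 3 trophoblast genes at both stages. Other marker sets were apart at 1 or both stages. Those of 4 mesoderm and muscle genes, Tagln and Acta2 among them, were 5.53 to 5.72 in RESTwt and 6.05 to 6.57 in RESTko at ES. They met at NP (5.96 to 6.30 and 5.34 to 5.96). Those of 3 blood and endothelial genes were lower in RESTko, at 5.31 to 5.32 against 5.14 to 5.27 at ES and 5.37 to 5.50 against 4.87 to 5.21 at NP. Those of 5 neuron genes were higher in RESTko, at 6.51 to 6.69 against 7.48 to 7.67 at ES and 8.31 to 8.99 against 9.20 to 9.50 at NP. Of these neuron genes, Tubb3, Snap25 and Stmn2 are also on the list of known RE1 targets described below. The part of these marker sets in the epithelial values was not tested. The count of 24 was 21 without both ES arrays of letter c and 22 to 26 over the 12 omissions of 1 array.

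**Figure D2:**
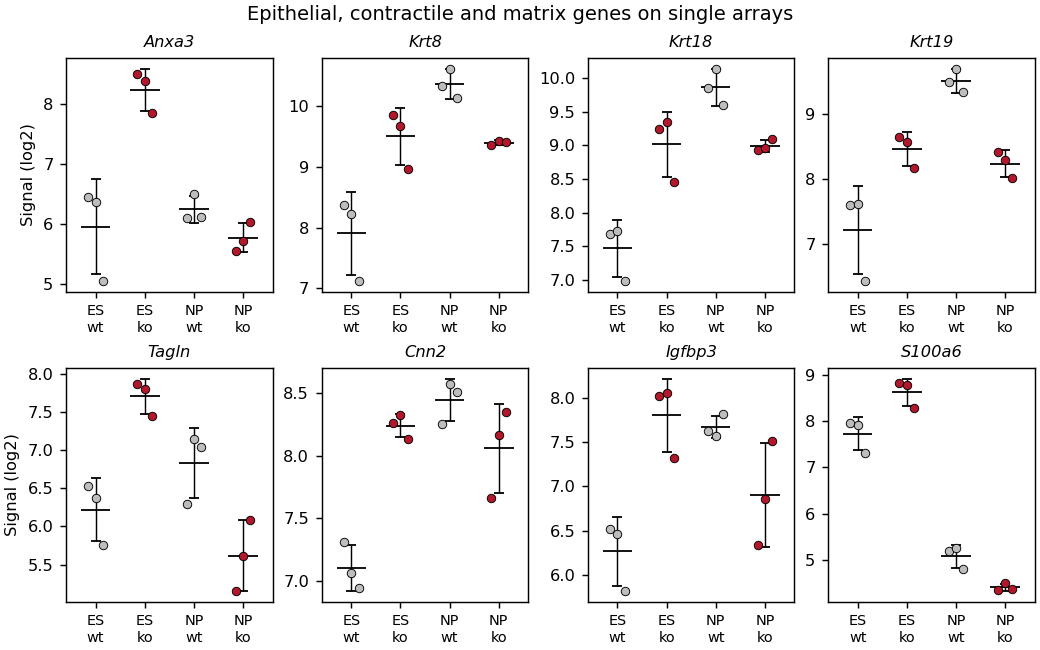
Log2 signal of 8 genes on each array (points, 3 per group), with group means (bars) and SD (whiskers), for RESTwt (grey) and RESTko (red) at ES and NP; each panel has its own axis, which does not start at 0. Krt8, Krt18, Krt19 and Tagln show RESTko above RESTwt at ES and below it at NP, while for Cnn2 the NP groups overlap, with RESTko array c above the lowest RESTwt array.

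Of 29 genes of mesoderm and smooth muscle, 0 were called more positive and 6 (20.7%) more negative at NP, against 2.55% of all genes. The median was -0.15. The 6 were Tagln (-2.70), Acta2 (-1.61), Cnn2 (-1.53), Tpm1 (-1.47), Myl9 (-1.18) and Cnn1 (-1.15), which encode actin, myosin light chain and actin-binding proteins. A further 8 contractile genes of the list were not called (Acta1, Actc1, Des, Lmod1, Myh11, Myl7, Tnnt2 and Tpm2), with stage differences from -0.65 (Acta1) to 0.17 (Myh11). This split of the list was made after its values were seen. At ES 8 members were higher and 1 lower, and at NP 0 were higher and 4 lower. Over all genes 5.19% were higher at ES and 3.71% lower at NP.

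Tagln, transgelin, measured 6.53, 6.37 and 5.75 on the ES RESTwt arrays and 7.87, 7.80 and 7.44 on the ES RESTko arrays, and 6.30, 7.15 and 7.03 on the NP RESTwt arrays and 5.15, 5.61 and 6.08 on the NP RESTko arrays. The groups did not overlap at either stage, and the order of the genotypes was opposite. For Tagln the stage difference was -2.70 (SE 0.33, adjusted p = 0.00014, limma). The smooth muscle actin gene Acta2 measured 6.88, 6.75 and 6.69 on the ES RESTwt arrays and 8.39, 8.37 and 7.13 on the ES RESTko arrays, and 7.50, 7.13 and 7.86 on the NP RESTwt arrays and 6.46, 7.15 and 7.63 on the NP RESTko arrays. Its ES groups were apart, whereas at NP the groups overlapped, with RESTko array a the lowest of the 6. Its stage difference was -1.61 (SE 0.42, adjusted p = 0.0326, limma). Acta2 lost its call without any 1 array other than ES RESTko array c, ES RESTwt array a, NP RESTko array c, NP RESTwt array a and NP RESTwt array b (adjusted p 0.0542 to 0.0921). The calponin gene Cnn2 measured 7.31, 7.06 and 6.94 on the ES RESTwt arrays and 8.26, 8.32 and 8.14 on the ES RESTko arrays, and 8.26, 8.57 and 8.51 on the NP RESTwt arrays and 7.66, 8.17 and 8.35 on the NP RESTko arrays, apart at ES and overlapping at NP, with a stage difference of -1.53 (SE 0.22, adjusted p = 0.000427, limma).

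The CArG box is the element bound by serum response factor at genes of actin and smooth muscle. Of the 6 called contractile genes, 5 had a promoter in the RefSeq table (build GRCm38.p6, from 250 bases before to 50 after a transcript start), and 2 of these held a CArG box on either strand. They are shown because they are the called contractile genes with a match, with the box in capitals, 5′ to 3′ on the strand of the gene.
Cnn2 (chr10:79988524-79988573, plus strand): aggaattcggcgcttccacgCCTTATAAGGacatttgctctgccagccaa
Myl9 (chr2:156775283-156775332, plus strand): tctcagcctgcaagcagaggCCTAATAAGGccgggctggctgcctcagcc
The box starts at position -56 of Cnn2 and -161 of Myl9, counted from the transcript start. Over all 32851 promoters of the table, 1.63% held a CArG box. Of 254 measured genes with one, 19 were called, 6 more positive and 13 more negative, against 4.87% of all genes. For the 13 called epithelial genes in the table, 0 promoters held the motif AACCGGTT of Grainyhead factors, which says only that these letters are not in the window.

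Some genes of matrix and secreted factors were more negative at NP too. Of 33 genes of a fibroblast and matrix list, 0 were called more positive and 6 (18.2%) more negative, against 2.55% of all genes. The median was -0.30. Igfbp3, a binding protein of insulin-like growth factors, measured 6.52, 6.46 and 5.82 on the ES RESTwt arrays and 8.02, 8.06 and 7.33 on the ES RESTko arrays, and 7.63, 7.57 and 7.81 on the NP RESTwt arrays and 6.34, 6.86 and 7.52 on the NP RESTko arrays. Its ES groups were apart, and its NP groups were too, narrowly so between RESTko array c and RESTwt array b. Between the stages its effect differed by -2.30 (SE 0.34, adjusted p = 0.000536, limma). The matricellular protein gene Thbs1 had an effect of 1.34 at ES and -0.33 at NP, the latter not called, with a stage difference of -1.66 (SE 0.30, adjusted p = 0.00284, limma). S100a6, a calcium-binding protein gene, was reversed, from 0.90 at ES to -0.67 at NP, with a stage difference of -1.57 (SE 0.26, adjusted p = 0.00162, limma). The proteoglycan gene Dcn, named after its values were seen, had no called effect at ES (-0.06) and one of -1.16 at NP, and its stage difference was -1.10 (adjusted p = 0.00759, limma). Marker means of 5 fibroblast genes, collagens among them, overlapped at ES (4.58 to 4.81 in RESTwt, 4.51 to 4.83 in RESTko), and at NP they were 6.15 to 6.84 in RESTwt and 5.65 to 6.09 in RESTko. Anxa1, another annexin, had a stage difference of -2.38 (SE 0.57, adjusted p = 0.0195, limma) although its effects of 1.20 at ES and -1.18 at NP were each not called (adjusted p = 0.0721 and 0.086, limma). Anxa1 lost it without ES RESTko array a (0.0597), ES RESTko array b (0.0552), ES RESTwt array c (0.065) or NP RESTwt array b (0.0506).

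Of 21 measured genes of the p53 response and apoptosis, 0 were called more positive and 5 (23.8%) more negative at NP (median -0.28). Of all genes, 2.55% were called more negative. At ES 9 of the list were higher and 0 lower, against 0 and 3 at NP. Over all genes 5.19% were higher at ES and 3.71% lower at NP. Aen, an exonuclease of apoptosis, had an effect of 1.15 at ES and of 0.38 at NP, with a stage difference of -0.77 (SE 0.17, adjusted p = 0.00985, limma). The kinase gene Plk2 moved from 0.82 to -0.17, with a stage difference of -0.99 (SE 0.18, adjusted p = 0.00291, limma). Perp, a protein of desmosomes as well as a p53 target and a member of both lists, was reversed, from 0.61 to -0.51 (-1.12 (SE 0.20, adjusted p = 0.00263, limma)). Without both ES arrays of letter c, Aen missed the threshold (adjusted p = 0.0546).

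Kbtbd11, of the kelch and BTB domain family, had the most positive stage difference of the genes named by rank and the widest reversal in that direction. It measured 6.78, 6.08 and 6.63 on the ES RESTwt arrays and 4.59, 4.55 and 4.64 on the ES RESTko arrays. At NP the values were 5.23, 4.85 and 5.22 on the NP RESTwt arrays and 6.31, 6.20 and 6.48 on the NP RESTko arrays. RESTko lay below RESTwt at ES and above it at NP, with no overlap at either stage. The stage difference of Kbtbd11 was 3.13 (SE 0.22, adjusted p = 4.23e-07, limma), from an effect of -1.90 at ES to 1.23 at NP. In RESTwt cells Kbtbd11 fell by 1.40 from ES to NP, and in RESTko cells it rose by 1.74. Kbtbd11 lies on chromosome 8, where the median gene had an effect of -0.17 at ES and -0.19 at NP, against medians of -0.04 to 0.00 at ES and 0.00 to 0.03 at NP on the other autosomes. The median stage difference of chromosome 8 was -0.0015, and 4.71% of its genes were called, against 3.37% to 7.01% on the other autosomes.

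Zic2 and Dnajc6 were reversed in the same direction. Zic2, a zinc finger factor of the neural tube, measured 6.07, 5.92 and 6.27 on the ES RESTwt arrays and 5.26, 5.15 and 5.80 on the ES RESTko arrays, and 7.37, 7.21 and 7.78 on the NP RESTwt arrays and 7.99, 8.08 and 8.03 on the NP RESTko arrays. RESTko was the lower at ES and the higher at NP, with groups close but apart at both stages. Between the stages its effect differed by 1.27 (SE 0.22, adjusted p = 0.00246, limma). Dnajc6, the neuronal auxilin that strips clathrin from vesicles, moved from -0.38 at ES to 0.74 at NP, with a stage difference of 1.12 (SE 0.15, adjusted p = 0.000212, limma).

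Genes reversed towards a negative effect outside the epithelium included signals and guidance cues. Sema3e, a semaphorin that repels axons and vessels, measured 6.51, 6.40 and 6.03 on the ES RESTwt arrays and 7.49, 7.30 and 7.26 on the ES RESTko arrays, and 6.30, 6.10 and 5.96 on the NP RESTwt arrays and 5.51, 5.57 and 5.36 on the NP RESTko arrays. The groups were apart at both stages, with RESTko on top at ES and at the bottom at NP, and the stage difference was -1.68 (SE 0.16, adjusted p = 5.91e-06, limma). Fgf5, a growth factor of the post-implantation epiblast, moved from 0.71 to -0.43 (-1.14 (SE 0.13, adjusted p = 4.14e-05, limma)). The retinol dehydrogenase gene Rdh10 moved from 0.61 to -0.39 (-1.004 (SE 0.13, adjusted p = 0.000211, limma)). The tissue plasminogen activator gene Plat, on chromosome 8, moved from 0.47 to -0.53 (-1.005 (SE 0.20, adjusted p = 0.00566, limma)), and the imprinted, retrotransposon-derived gene Peg10 from 0.75 to -0.50 (-1.25 (SE 0.18, adjusted p = 0.00059, limma)).

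**Figure D3:**
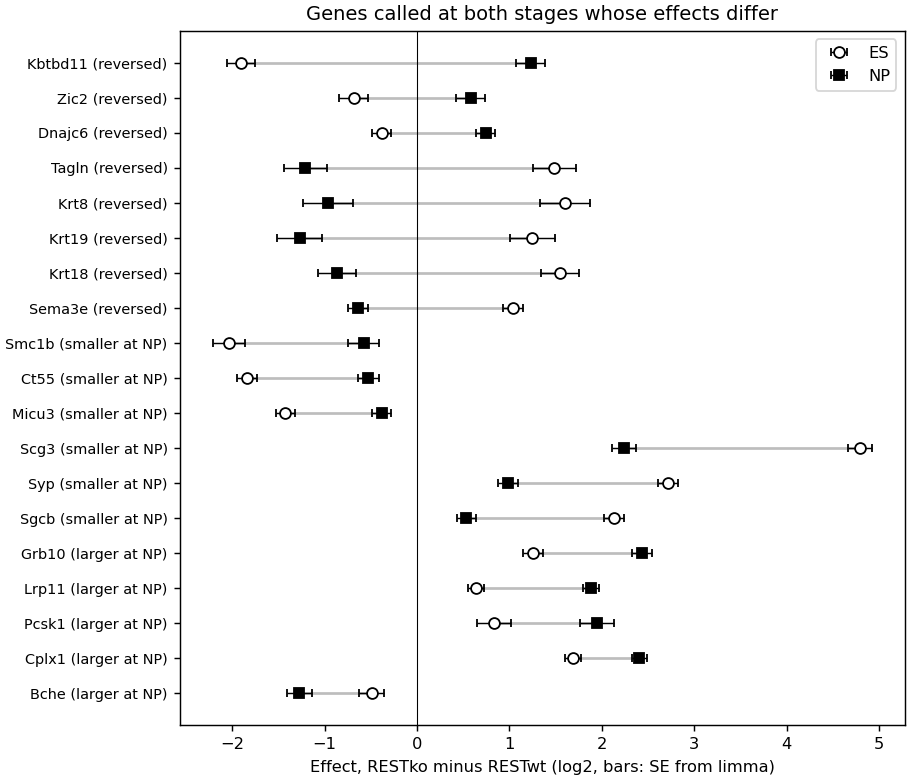
Effect of the knockout (RESTko minus RESTwt, log2) at ES (open circles) and NP (filled squares), with SE from limma, for 19 named genes called at both stages, grouped by class. Kbtbd11 crosses 0 from -1.90 to 1.23, Krt8 crosses in the opposite direction, and Scg3 stays positive while its effect shrinks from 4.79 to 2.24.

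Of 86 measured genes of a list of known RE1 targets, 22 (25.6%) were called more positive at NP and 3 (3.49%) more negative. Of all genes, 2.31% and 2.55% were. The list was written with earlier results of these data known. Its median stage difference was 0.23. At ES 36 were higher in RESTko and 0 lower, with a median effect of 0.25, and at NP 62 were higher and 0 lower, with a median of 0.80. Over all genes 5.19% were higher at ES and 4.32% at NP. Of 32 members higher at both stages, 6 had a larger and 3 a smaller called effect at NP, and 23 had no called stage difference. Of 30 higher at NP and not called at ES, 16 had a called stage difference, all more positive. The 4 higher at ES and not called at NP had none. The 22 became 14 without ES RESTko array b and 15 or 16 without ES RESTwt array c, NP RESTwt array b, ES RESTko array a, ES RESTwt array b or NP RESTko array a, and 11 without both ES arrays of letter c.

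The 3 members with a smaller effect at NP encode proteins of secretory granules and synaptic vesicles. Scg3, a granin of dense-core granules, measured 3.50, 3.30 and 3.37 on the ES RESTwt arrays and 8.20, 8.08 and 8.26 on the ES RESTko arrays. At NP it measured 7.43, 6.85 and 7.42 on the NP RESTwt arrays and 9.61, 9.41 and 9.41 on the NP RESTko arrays. The genotypes did not overlap at either stage, and the gap was wider at ES, where the RESTwt arrays were low. The effect of Scg3 fell from 4.79 (27.7-fold) to 2.24 (4.73-fold), a stage difference of -2.55 (SE 0.18, adjusted p = 5.15e-07, limma). In steps, Scg3 rose by 3.85 from ES to NP in RESTwt cells and by 1.30 in RESTko cells.

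Syp, synaptophysin of the synaptic vesicle membrane, measured 5.40, 5.25 and 5.40 on the ES RESTwt arrays and 8.05, 8.06 and 8.10 on the ES RESTko arrays, and 7.15, 6.63 and 6.88 on the NP RESTwt arrays and 8.01, 7.82 and 7.78 on the NP RESTko arrays. RESTko was the higher at both stages and its step from ES to NP was -0.20, while in RESTwt cells the step was 1.54. The effect of Syp differed between the stages by -1.74 (SE 0.15, adjusted p = 2.85e-06, limma). Snap25, a SNARE of vesicle fusion, measured 4.36, 3.84 and 4.16 on the ES RESTwt arrays and 6.31, 6.19 and 6.26 on the ES RESTko arrays, and 7.04, 6.24 and 6.87 on the NP RESTwt arrays and 7.75, 7.82 and 7.65 on the NP RESTko arrays, with RESTko the higher at both stages. Its effect went from 2.13 to 1.02, a stage difference of -1.11 (SE 0.22, adjusted p = 0.00678, limma). The same class held Sgcb, the sarcoglycan beta gene, which is not on the RE1 list: its effect went from 2.13 to 0.53 (-1.60 (SE 0.15, adjusted p = 5.91e-06, limma)).

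Members with a larger effect at NP were already higher in RESTko at ES. Cplx1, complexin, which clamps and promotes vesicle fusion, measured 5.34, 5.45 and 5.45 on the ES RESTwt arrays and 7.06, 7.06 and 7.18 on the ES RESTko arrays, and 5.27, 5.07 and 5.08 on the NP RESTwt arrays and 7.52, 7.63 and 7.48 on the NP RESTko arrays. The RESTwt arrays were slightly lower and the RESTko arrays slightly higher at NP than at ES, and the stage difference was 0.72 (SE 0.12, adjusted p = 0.00137, limma). Pcsk1, a convertase that cuts prohormones in granules, measured 5.19, 5.03 and 5.21 on the ES RESTwt arrays and 6.09, 5.93 and 5.92 on the ES RESTko arrays, and 4.46, 4.07 and 3.85 on the NP RESTwt arrays and 5.85, 5.93 and 6.45 on the NP RESTko arrays. Its RESTko arrays stayed near their ES level while its RESTwt arrays were lower at NP, and the stage difference was 1.12 (SE 0.26, adjusted p = 0.0161, limma). Without both ES arrays of letter c the call of Pcsk1 was lost (adjusted p = 0.0893). The other list members of this class, named after their values were seen, were Hcn2 (0.70), a pacemaker channel, Nmnat2 (0.63), needed for axon survival, Ap3b2 (0.95), of vesicle sorting, and Xkr7 (0.74).

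Outside the list, Grb10, an imprinted adaptor that restrains growth signals, measured 7.39, 7.34 and 7.04 on the ES RESTwt arrays and 8.60, 8.47 and 8.45 on the ES RESTko arrays, and 8.06, 7.69 and 7.65 on the NP RESTwt arrays and 10.28, 10.24 and 10.16 on the NP RESTko arrays. RESTko was the higher at both stages and the gap was wider at NP, with a stage difference of 1.18 (SE 0.15, adjusted p = 0.000209, limma). Lrp11, a receptor-like membrane protein gene, measured 7.91, 7.81 and 7.72 on the ES RESTwt arrays and 8.48, 8.42 and 8.47 on the ES RESTko arrays, and 6.59, 6.84 and 6.64 on the NP RESTwt arrays and 8.59, 8.49 and 8.63 on the NP RESTko arrays, and its stage difference was 1.24 (SE 0.12, adjusted p = 1.22e-05, limma). The larger negative effect at NP was that of Bche, butyrylcholinesterase, from -0.49 to -1.27 (-0.79 (SE 0.19, adjusted p = 0.0213, limma)), and it was the single gene of its class and direction. Bche lost it without ES RESTko array c (0.0598), NP RESTko array a (0.0619) or NP RESTwt array b (0.0598).

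Of the 22 RE1 genes with a more positive effect at NP, 16 had no called effect at ES. Th, the enzyme that makes L-DOPA from tyrosine, had the largest stage difference among them. It measured 4.44, 4.77 and 4.87 on the ES RESTwt arrays and 4.79, 4.82 and 4.34 on the ES RESTko arrays. At NP the values were 5.27, 5.02 and 5.16 on the NP RESTwt arrays and 6.61, 7.11 and 6.86 on the NP RESTko arrays. The genotypes overlapped at ES and were apart at NP, where RESTko was the higher. The effect of Th was -0.04 at ES and 1.71 at NP, a stage difference of 1.75 (SE 0.20, adjusted p = 8.48e-05, limma).

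Chgb, chromogranin B of dense-core granules, measured 3.91, 4.22 and 4.32 on the ES RESTwt arrays and 4.35, 4.37 and 4.67 on the ES RESTko arrays, and 6.41, 5.45 and 5.87 on the NP RESTwt arrays and 7.61, 7.41 and 7.46 on the NP RESTko arrays. The ES groups were barely apart at a low level and the NP groups clearly so, with a stage difference of 1.27 (SE 0.25, adjusted p = 0.0057, limma). The median of 29 genes of dense-core granules was 0.21. Of these genes, 7 (24.1%) were called more positive and 2 (6.90%) more negative, against 2.31% and 2.55% of all genes. They included Srgn, serglycin, a proteoglycan that packs granules, which varied widely: it measured 5.51, 5.49 and 5.68 on the ES RESTwt arrays and 6.06, 5.79 and 6.90 on the ES RESTko arrays, and 4.72, 6.23 and 5.11 on the NP RESTwt arrays and 9.13, 7.63 and 7.61 on the NP RESTko arrays. RESTko was the higher at NP on all 3 arrays, and the single-array effects at the stages overlapped. Its stage difference was 2.07 (SE 0.57, adjusted p = 0.0441, limma). Srgn lost its call without any 1 array other than ES RESTko array c, NP RESTko array b, NP RESTko array c and NP RESTwt array b (adjusted p 0.0692 to 0.114).

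Of 38 voltage-gated channel genes, 6 were called more positive and 0 more negative (median 0.18), and of 40 transmitter receptor genes 6 and 1 (median 0.17). Most members of both lists thus had no called stage difference, but both shares of more positive calls lay above the 2.31% of all genes. For the channel genes this share was 15.8%. Of all genes, 2.55% were called more negative. Cacng2, stargazin, which carries AMPA receptors to the synapse, measured 5.01, 5.32 and 5.52 on the ES RESTwt arrays and 5.22, 5.25 and 5.13 on the ES RESTko arrays, and 5.84, 5.30 and 5.49 on the NP RESTwt arrays and 6.92, 6.54 and 6.67 on the NP RESTko arrays. Its groups overlapped at ES and were apart at NP, with a stage difference of 1.25 (SE 0.20, adjusted p = 0.00125, limma). The potassium channel gene Kcnh2 had a stage difference of 0.71 (SE 0.15, adjusted p = 0.00749, limma). The sodium channel gene Scn3a, with effects of -0.55 and 0.66 that were each not called, had one of 1.21 (SE 0.33, adjusted p = 0.0415, limma). Scn3a lost its call without any 1 array other than NP RESTko array b and NP RESTwt array a (adjusted p 0.0509 to 0.114).

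Gria2, the AMPA receptor subunit that limits calcium entry, measured 2.85, 2.77 and 2.85 on the ES RESTwt arrays and 2.95, 2.69 and 2.84 on the ES RESTko arrays, and 6.81, 5.30 and 6.17 on the NP RESTwt arrays and 7.84, 7.06 and 7.31 on the NP RESTko arrays. The ES arrays of both genotypes lay together at a low level, and at NP the lowest RESTko array lay above the highest RESTwt array. The effect of Gria2 differed between the stages by 1.31 (SE 0.35, adjusted p = 0.0397, limma). Gria2 lost its call without any 1 array other than NP RESTko array b and NP RESTwt array a (adjusted p 0.0543 to 0.111). The glycine receptor genes Glra2 and Glra1 had stage differences of 1.67 (SE 0.26, adjusted p = 0.00101, limma) and 1.23 (SE 0.24, adjusted p = 0.00594, limma), with no called effect at ES (0.06 and 0.19). Their ES means in RESTwt and RESTko were low, at 2.9 and 3.0 for Glra2 and 3.0 and 3.2 for Glra1.

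Other genes named by rank had the same form. Slitrk1, a membrane protein of neurite growth and synapses, measured 3.61, 3.87 and 3.82 on the ES RESTwt arrays and 3.48, 3.75 and 3.36 on the ES RESTko arrays, and 5.83, 4.75 and 5.24 on the NP RESTwt arrays and 7.37, 6.94 and 7.11 on the NP RESTko arrays. Its ES groups overlapped near the lowest signals of its 12 arrays, and at NP RESTko was apart and higher. The stage difference was 2.11 (SE 0.26, adjusted p = 0.000144, limma). Fstl5, a secreted follistatin-like protein gene, measured 2.96, 3.11 and 3.09 on the ES RESTwt arrays and 2.86, 3.04 and 2.96 on the ES RESTko arrays, and 6.42, 5.53 and 6.22 on the NP RESTwt arrays and 8.35, 7.76 and 8.09 on the NP RESTko arrays, overlapping at ES and apart at NP, with a stage difference of 2.11 (SE 0.24, adjusted p = 7.67e-05, limma). Iqsec3, an exchange factor of inhibitory synapses, had one of 1.79 (SE 0.30, adjusted p = 0.00161, limma). Hpgds, a prostaglandin D synthase, measured 3.19, 3.25 and 3.33 on the ES RESTwt arrays and 3.23, 3.19 and 3.24 on the ES RESTko arrays, and 4.09, 4.07 and 4.0 on the NP RESTwt arrays and 5.69, 5.59 and 5.95 on the NP RESTko arrays, again alike at ES and apart at NP (1.72 (SE 0.16, adjusted p = 7.26e-06, limma)).

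**Figure D4:**
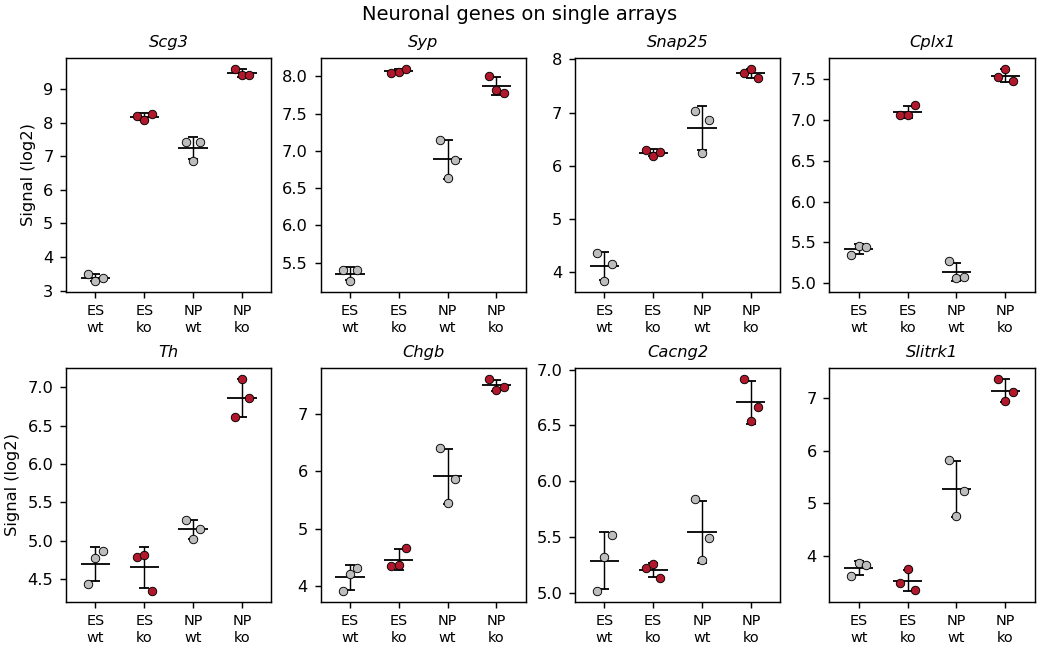
Log2 signal of 8 neuronal genes on each array (points, 3 per group), with group means (bars) and SD (whiskers), for RESTwt (grey) and RESTko (red) at ES and NP; each panel has its own axis, which does not start at 0. Scg3, Syp and Snap25 have their widest gap at ES, Cplx1 has a gap at both stages, and Th, Chgb, Cacng2 and Slitrk1 have one at NP.

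Genes of axon guidance and adhesion moved both ways, with 7 of 42 (16.7%) called more positive and 3 (7.14%) more negative. The shares over all genes were 2.31% and 2.55%. The list had a median of 0.27. Epha4, an ephrin receptor, measured 8.32, 8.32 and 8.02 on the ES RESTwt arrays and 7.20, 6.88 and 6.53 on the ES RESTko arrays, and 7.73, 7.74 and 7.94 on the NP RESTwt arrays and 8.07, 8.22 and 8.19 on the NP RESTko arrays. RESTko was clearly the lower at ES and slightly the higher at NP, where the effect of 0.36 was not called, and the stage difference was 1.71 (SE 0.18, adjusted p = 2.42e-05, limma). Epha5, of the same family, had no called effect at ES (-0.13) and one of 1.00 at NP (1.13 (SE 0.22, adjusted p = 0.00525, limma)). Its ES means were low, at 3.07 in RESTwt and 2.93 in RESTko. Among pan-neuronal genes, 4 of 35 were called more positive and 1 more negative (median 0.40), and among synaptic vesicle genes 3 of 37 and 2 (median 0.26). The RNA-binding protein gene Elavl4 moved from -0.43 to 0.41, each not called (0.84 (SE 0.19, adjusted p = 0.0149, limma)), and the neuronal transgelin gene Tagln3 from -0.73 to 0.01 (0.73 (SE 0.18, adjusted p = 0.0245, limma)). Tagln3 lost it without ES RESTko array a (0.0647), ES RESTwt array a (0.0541), ES RESTwt array c (0.0698) or NP RESTko array a (0.0637). Of 38 neuronal transcription factor genes, 1 was called more positive, Myt1 (0.97 (SE 0.23, adjusted p = 0.0161, limma)), and 1 more negative, Neurod1 (-1.12 (SE 0.29, adjusted p = 0.0301, limma)). Neurod1 lost its call without any 1 array other than ES RESTko array b, ES RESTwt array a, ES RESTwt array b, NP RESTko array a and NP RESTwt array b (adjusted p 0.0546 to 0.0887). Without both ES arrays of letter c, Elavl4 (adjusted p = 0.0751) and Myt1 (adjusted p = 0.0825) were not called.

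An intact RE1 core in the promoter was rare, and genes with one had a more positive effect at NP in 6 of 14 cases. The core was searched as its left box AGCACC, any 2 bases, then its right box GGACAG, on either strand, in the promoters of the RefSeq table (build GRCm38.p6). It was found in 17 of 32851 promoters (0.052%), which belong to 14 measured genes. Of these 14, 6 were called and all 6 were more positive at NP, against 2.31% of all genes. At ES 0 of the 14 were higher and 1 was lower in RESTko, and at NP 5 were higher and 0 lower. The promoters of these 6 are shown because they are the called genes with this match, with the match in capitals, 5′ to 3′ on the strand of the gene.
Gria2 (chr3:80802972-80803025, minus strand): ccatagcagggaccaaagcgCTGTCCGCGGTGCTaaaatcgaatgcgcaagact
Ogdhl (chr14:32321897-32321950, plus strand): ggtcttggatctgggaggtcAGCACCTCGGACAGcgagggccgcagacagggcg
Hrh3 (chr2:180104557-180104610, minus strand): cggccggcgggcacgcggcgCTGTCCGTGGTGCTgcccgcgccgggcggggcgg
Osbp2 (chr11:3774774-3774827, minus strand): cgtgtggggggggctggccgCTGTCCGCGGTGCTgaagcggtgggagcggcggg
Robo2 (chr16:75447336-75447389, minus strand): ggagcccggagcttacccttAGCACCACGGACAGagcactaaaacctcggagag
Scamp5 (chr9:57468178-57468231, minus strand): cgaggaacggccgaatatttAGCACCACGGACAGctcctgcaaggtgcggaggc
The match starts at positions from -183 (Hrh3) to -76 (Robo2), counted from the transcript start, on the strand of the gene in Ogdhl, Robo2 and Scamp5 and on the other strand in Gria2, Hrh3 and Osbp2. Hrh3, Osbp2, Robo2 and Scamp5 are named here for their match, after their values were seen. A match is a description of the letters, not a site shown to be bound. Of 62 genes of the RE1 list with a promoter in the table, 2 held this match. Among the 21 of them that were called, 1 did.

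The 6 genes differ in level and form. Robo2, the Slit receptor of axons, was low at ES in both genotypes (4.14 ± 0.15 in RESTwt and 4.09 ± 0.27 in RESTko, mean ± SD, n = 3) and stood at 6.17 ± 0.07 and 6.81 ± 0.01 at NP, with a stage difference of 0.68 (SE 0.15, adjusted p = 0.0116, limma). Hrh3, the histamine receptor of nerve terminals, was at 4.82 ± 0.17 and 5.02 ± 0.19 at ES and at 4.82 ± 0.15 and 5.97 ± 0.14 at NP (0.95 (SE 0.16, adjusted p = 0.00205, limma)). Scamp5, of synaptic vesicle membranes, and Osbp2, an oxysterol-binding protein gene, had stage differences of 0.64 (SE 0.14, adjusted p = 0.01, limma) and 0.74 (SE 0.11, adjusted p = 0.000617, limma), with effects of 0.45 and 0.55 at NP.

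Ogdhl, a mitochondrial oxoglutarate dehydrogenase-like enzyme of brain, was unlike the other 5. It measured 8.68, 8.50 and 8.62 on the ES RESTwt arrays and 6.93, 6.87 and 7.21 on the ES RESTko arrays, and 7.71, 7.54 and 7.48 on the NP RESTwt arrays and 7.95, 7.77 and 7.81 on the NP RESTko arrays. RESTko was far lower at ES, and at NP it was higher on all 3 arrays by a small margin that was not called (effect 0.27, adjusted p = 0.126, limma). Its effect differed between the stages by 1.86 (SE 0.14, adjusted p = 9.43e-07, limma). The 8 genes with the match and no call were Fam163b, Fbll1, Gad2, Lca5, Lhx3, Pip, Sptbn4 and Ttc9b, with stage differences from -0.29 (Lhx3) to 0.54 (Fbll1). With 0 to 12 bases between the boxes, 55 promoters (0.167%) and 31 measured genes matched. Of those 31, 10 were called more positive, Scg2 (0.85), Ptprn2 (0.93) and Lrp11 among them, and 1 more negative, S100a11 (-1.09), a calcium-binding protein gene, again named for their match. The shares over all genes were 2.31% and 2.55%. In Scg2 and Ptprn2 the boxes abut, and the match lies at the transcript start.
Scg2 (chr1:79440027-79440059, minus strand): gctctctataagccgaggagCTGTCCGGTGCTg
Ptprn2 (chr12:116485723-116485742, plus strand): ggcgCTGTCCGGTGCTgaag
These are shown for their granule proteins, secretogranin II and a granule phosphatase-like protein. The table held promoters of Scg3 and Syp without a match in this window.

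Of 34 genes of germline and meiosis, 5 (14.7%) were called more positive at NP, against 2.31% of all genes, and 0 more negative (median 0.17). At ES 11 were lower and 1 higher in RESTko, and at NP 5 were lower and 1 higher. Over all genes 4.05% were lower at ES and 3.71% at NP. Dnajc5g, a cysteine string protein gene of testis, measured 5.71, 5.71 and 6.04 on the ES RESTwt arrays and 3.72, 3.74 and 4.41 on the ES RESTko arrays, and 3.33, 3.72 and 3.34 on the NP RESTwt arrays and 3.27, 3.40 and 3.43 on the NP RESTko arrays. RESTko was the lower at ES by a wide margin, and at NP both genotypes lay together near their lowest values. Its effect differed between the stages by 1.77 (SE 0.23, adjusted p = 0.000183, limma). Smc1b, a cohesin subunit of meiosis, measured 7.59, 7.41 and 7.60 on the ES RESTwt arrays and 5.38, 5.22 and 5.89 on the ES RESTko arrays, and 4.32, 4.88 and 4.39 on the NP RESTwt arrays and 3.94, 3.96 and 3.94 on the NP RESTko arrays. RESTko was the lower at both stages, by less at NP, and the stage difference was 1.45 (SE 0.24, adjusted p = 0.0017, limma). Ct55, a cancer and testis gene on the X chromosome, moved from -1.84 to -0.53 (1.31 (SE 0.16, adjusted p = 0.000122, limma)), and the oocyte gene Nlrp4f from -1.62 to -0.13 (1.49 (SE 0.18, adjusted p = 0.00014, limma)). Micu3, a regulator of mitochondrial calcium uptake on chromosome 8, was another of the 6 genes with a smaller negative effect at NP (-1.43 to -0.38, 1.05 (SE 0.15, adjusted p = 0.000366, limma)). In both genotypes, Dnajc5g and Nlrp4f had lower signals at NP than at ES.

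Some pluripotency and progenitor genes were called. Of 30 pluripotency genes, 2 (6.67%) were called more positive and 1 (3.33%) more negative (median -0.17), against 2.31% and 2.55% of all genes. They were Prdm14 (0.80 (SE 0.20, adjusted p = 0.0259, limma)) and Tcl1 (0.65 (SE 0.18, adjusted p = 0.0407, limma)), both of naive stem cells and both lower in RESTko at ES, besides Fgf5. Prdm14 lost its call without any 1 array other than ES RESTwt array a, ES RESTwt array b, NP RESTko array a and NP RESTwt array b (adjusted p 0.0513 to 0.0709). Tcl1 lost its call without any 1 array other than ES RESTko array c, NP RESTko array a and NP RESTwt array c (adjusted p 0.0515 to 0.106). Of 29 neural progenitor genes, 6.90% were called in each direction. Msi1 (0.57 (SE 0.15, adjusted p = 0.0287, limma)), an RNA-binding protein of neural stem cells, and Pax7 (0.66 (SE 0.19, adjusted p = 0.047, limma)), a dorsal patterning factor, were called more positive, and 2 were called more negative, Prom1 (-0.70 (SE 0.18, adjusted p = 0.0315, limma)) among them. Msi1 lost it without ES RESTko array a (0.0531), ES RESTko array c (0.0734), ES RESTwt array a (0.0652), ES RESTwt array c (0.0579), NP RESTko array b (0.073) or NP RESTwt array b (0.0718). Pax7 lost its call without any 1 array other than ES RESTko array b, ES RESTwt array a, NP RESTko array a and NP RESTwt array c (adjusted p 0.0519 to 0.123). Prom1 lost its call without any 1 array other than ES RESTko array b, ES RESTwt array a, NP RESTko array b and NP RESTwt array a (adjusted p 0.0501 to 0.0871). The marker means of 6 stem cell genes ran from 6.63 to 7.66 on the NP RESTwt arrays and from 5.98 to 7.28 on the NP RESTko arrays, and thus overlapped. At ES they were 11.38 to 11.42 in RESTwt and 11.15 to 11.23 in RESTko. Those of 6 progenitor genes overlapped at ES (5.27 to 5.37 and 5.31 to 5.41), and at NP they were 8.39 to 8.65 in RESTwt and 8.74 to 8.80 in RESTko. The part of these shifts in the stage differences was not tested.

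Some patterning genes were called. For comparison, 2.31% of all genes were called more positive and 2.55% more negative. Of 28 Hox genes, 2 were called more positive, Hoxb5 (0.83 (SE 0.17, adjusted p = 0.00749, limma)) and Hoxb6 (0.67 (SE 0.15, adjusted p = 0.0149, limma)), and 0 more negative, with a median of 0.24. Hoxb5 measured 3.88, 4.20 and 4.20 on the ES RESTwt arrays and 3.75, 4.02 and 3.86 on the ES RESTko arrays, and 8.91, 8.73 and 8.66 on the NP RESTwt arrays and 9.55, 9.39 and 9.20 on the NP RESTko arrays, so its groups were low at ES and apart at NP. Without both ES arrays of letter c Hoxb5 was not called (adjusted p = 0.0512). Of 27 retinoic acid genes, 2 were more positive and 2 more negative. Adh1, which oxidizes retinol, measured 4.45, 4.36 and 4.43 on the ES RESTwt arrays and 4.19, 3.97 and 4.59 on the ES RESTko arrays, and 7.12, 6.47 and 6.21 on the NP RESTwt arrays and 5.10, 4.45 and 5.18 on the NP RESTko arrays. Its groups overlapped at ES, and at NP RESTko lay below RESTwt on every array, with a stage difference of -1.53 (SE 0.29, adjusted p = 0.00467, limma). The retinoic acid binding protein gene Crabp1 had one of 1.04 (SE 0.26, adjusted p = 0.0246, limma). Crabp1 lost it without ES RESTko array a (0.0504), ES RESTko array c (0.0637), ES RESTwt array c (0.0709), NP RESTko array b (0.0623), NP RESTko array c (0.0529) or NP RESTwt array b (0.0624). Among 33 endoderm genes, 1 was more positive, Hnf4a (0.67 (SE 0.14, adjusted p = 0.00918, limma)), and 2 more negative: Plat, given above, and Foxa1 (-1.14 (SE 0.18, adjusted p = 0.000856, limma)), a pioneer factor of endoderm and floor plate. Foxa1 measured 4.73, 4.83 and 5.07 on the ES RESTwt arrays and 4.75, 4.69 and 4.78 on the ES RESTko arrays, and 7.15, 7.37 and 7.10 on the NP RESTwt arrays and 5.62, 5.96 and 6.20 on the NP RESTko arrays, overlapping at ES and lower in RESTko on every NP array. Of 22 blood and endothelial genes, Srgn was the more positive call and Cdh5, VE-cadherin, on chromosome 8, the more negative (-0.74 (SE 0.16, adjusted p = 0.00989, limma)).

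Imprinted genes, which are expressed from 1 parental copy, moved in both directions: 5 of 25 were called more positive and 5 more negative, with a median of -0.16. Nnat, neuronatin, measured 5.90, 5.90 and 5.38 on the ES RESTwt arrays and 7.55, 7.54 and 7.12 on the ES RESTko arrays, and 10.42, 9.84 and 10.24 on the NP RESTwt arrays and 10.47, 10.11 and 10.22 on the NP RESTko arrays. RESTko was far higher at ES, and at NP the groups overlapped at a high level, with a stage difference of -1.58 (SE 0.23, adjusted p = 0.00053, limma). Cdkn1c, the growth-restraining inhibitor of cyclin-dependent kinases, was higher in RESTko at both stages and more so at NP (0.64 (SE 0.18, adjusted p = 0.0454, limma)). Cdkn1c lost its call without any 1 array other than NP RESTko array b and NP RESTwt array a (adjusted p 0.0507 to 0.118). Of 32 cell cycle genes, 3.1% were called in each direction, near the shares over all genes. Cdkn1c was the 1 more positive call and Cdk6 the 1 more negative (-0.87 (SE 0.22, adjusted p = 0.0251, limma)). Cdk6 lost it without ES RESTko array a (0.0727), ES RESTwt array c (0.0783), NP RESTko array a (0.0715), NP RESTko array c (0.054) or NP RESTwt array b (0.0678).

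Of all genes, 2.31% were called more positive and 2.55% more negative. A list of genes that act on REST, by breakdown, stabilization or splicing among others, held 2 calls of 13 genes (15.4%), both more positive. They were Btrc (0.45 (SE 0.12, adjusted p = 0.0416, limma)), the ubiquitin ligase subunit that recognizes phosphorylated REST, and the kinase gene Csnk1e (0.43 (SE 0.10, adjusted p = 0.0239, limma)). Btrc lost its call without any 1 array other than NP RESTko array b, NP RESTko array c and NP RESTwt array a (adjusted p 0.0546 to 0.115). Csnk1e lost it without ES RESTko array a (0.0647), ES RESTwt array c (0.067), NP RESTko array a (0.0701) or NP RESTwt array b (0.0595). Of 25 genes of REST cofactors, 0 were called, with 2 examples at -0.43 (Sap30, adjusted p = 0.102) and -0.40 (Ctdspl, adjusted p = 0.108). Of 30 genes of DNA methylation and Polycomb, Bmi1 (0.73 (SE 0.17, adjusted p = 0.0146, limma)), a Polycomb subunit, and Tet1 (0.41 (SE 0.11, adjusted p = 0.0371, limma)), which oxidizes methylcytosine, were called more positive. Tet1 lost its call without any 1 array other than ES RESTko array a, ES RESTwt array c and NP RESTwt array c (adjusted p 0.0583 to 0.102). Without both NP arrays of letter a, Bmi1 was not called (adjusted p = 0.0763). Of 16 cholesterol genes, 2 were called more positive, Stard4 (0.71 (SE 0.16, adjusted p = 0.0145, limma)), a sterol carrier, and Insig1 (0.70 (SE 0.17, adjusted p = 0.0239, limma)), a brake on sterol synthesis, and 0 more negative. Insig1 lost it without ES RESTko array a (0.0562), ES RESTko array b (0.0542), ES RESTwt array c (0.0735) or NP RESTko array b (0.0542). Without both ES arrays of letter c, Stard4 was not called (adjusted p = 0.0804). Among 27 immediate-early genes, 2 were called more negative, Ccn1 (-1.25 (SE 0.23, adjusted p = 0.00337, limma)) and Atf3 (-1.19 (SE 0.26, adjusted p = 0.011, limma)), both higher in RESTko at ES, and 1 more positive, Arc (0.73 (SE 0.14, adjusted p = 0.00607, limma)).

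Lists with 0 called members were trophoblast (12 genes), astrocyte (15), oligodendrocyte (13), housekeeping (12) and the REST cofactors. Their members with the largest differences by the naming rule were Plac1 (-0.95, adjusted p = 0.143) and Bmp4 (-0.88, adjusted p = 0.122) for trophoblast, and Gja1 (-0.77, adjusted p = 0.118) and Sox9 (0.45, adjusted p = 0.427) for astrocytes. For oligodendrocytes they were Olig1 (1.06, adjusted p = 0.0821) and Olig2 (0.60, adjusted p = 0.45), and for housekeeping Pgk1 (0.29, adjusted p = 0.192) and B2m (-0.28, adjusted p = 0.764), all in limma. In transmitter synthesis and transport, 1 of 24 genes (4.17%) was called more positive, Th, against 2.31% of all genes.

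**Figure D5:**
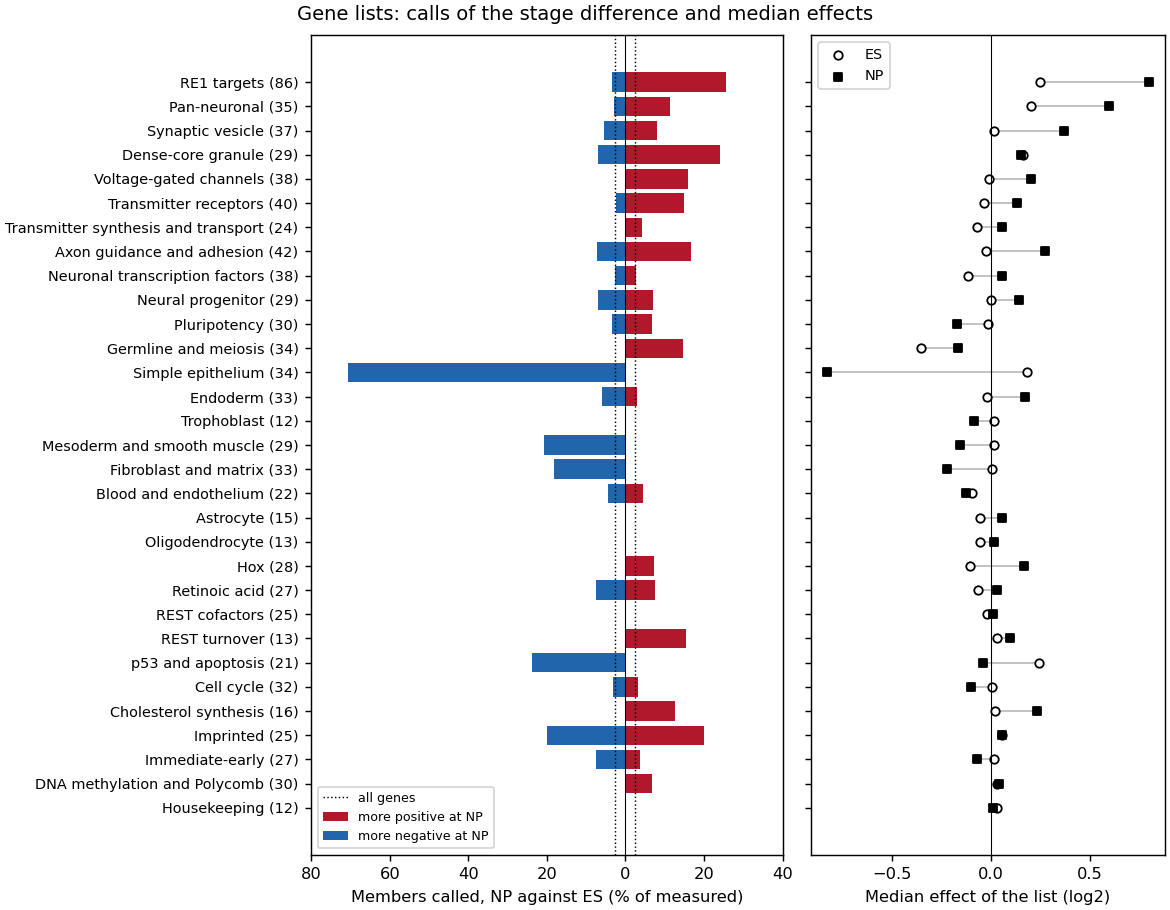
Left, members of each of 31 gene lists called more positive (red) or more negative (blue) at NP, in percent of the measured members (number in brackets), with dotted lines at the 2.31% and 2.55% of all genes. Right, median effect of the knockout in each list at ES (open circles) and NP (squares), in log2; simple epithelium moves from 0.18 to -0.83 and RE1 targets from 0.25 to 0.80.

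The stage difference can be read as unequal steps. Of the 461 more positive genes, 224 rose from ES to NP in both genotypes, 70 rose in RESTko alone, 99 fell in both, 44 fell in RESTwt alone and 24 fell in RESTwt and rose in RESTko. Of the 509 more negative genes, 152 rose in both, 90 rose in RESTwt alone, 126 fell in both, 77 fell in RESTko alone and 64 rose in RESTwt and fell in RESTko. Gria2 is of the first kind, with steps of 3.27 in RESTwt and 4.58 in RESTko, as are Slitrk1 (1.50 and 3.61) and Hoxb5 (4.67 and 5.50). Tagln, with 0.61 and -2.09, and Anxa3, with 0.29 and -2.47, fell in RESTko cells. In the mixed strain described next, also wildtype, Tagln and Anxa3 fell too, with steps of -2.54 and -3.06.

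The wildtype course of the mixed strain gave a further step for 923 of the 970 genes, measured on another platform, so values are set side by side and not tested. Its step lay nearer to that of RESTwt for 421 of them (45.6%), against 49.1% of all 16553 genes on both platforms. By direction, of 434 more positive genes 245 (56.5%) lay nearer to RESTwt, and of 489 more negative genes 176 (36.0%). Among called RE1 genes 17 of 23 lay nearer to RESTwt, and among called epithelial genes 9 of 24. Median steps of the RE1 genes were 0.17 in the mixed strain, 0.49 in RESTwt and 1.45 in RESTko. Those of the epithelial genes were -0.48, 0.46 and -0.69. The platforms may differ in the scale of a step, and nearness does not allow for this. For Krt8 the step was 0.70 in the mixed strain, against 2.46 in RESTwt and -0.11 in RESTko, and for Scg3 it was 2.86, against 3.85 and 1.30. Kbtbd11, with the most positive stage difference of the genes named by rank, had a step of 3.12 in the mixed strain, of the sign seen in RESTko (1.74) and opposite to RESTwt (-1.40). For Tagln, Anxa3 and Kbtbd11, the wildtype of the mixed strain thus lay nearer to RESTko than to RESTwt.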

How the data were processed

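The authors deposited log2 signals of Affymetrix probe sets, made with oligo 1.14.0 per the submitters' processing notes. The sources used here do not give the summarization or the normalization. Values were used as deposited, and the array medians were 5.02 to 5.07 at ES and 5.19 to 5.26 at NP. Of 35556 probe sets, 21789 carried 1 gene symbol, 1621 several and 12146 none. A gene was represented by its probe set with the highest mean over the 18 arrays, which gave 19938 genes.

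A mean for each of 6 groups was fitted to the 18 arrays with limma 3.58.1 in R 4.3.3 (lmFit, eBayes, 12 residual degrees of freedom), and the stage difference was tested two-sided with Benjamini-Hochberg adjustment over all genes. The fit was tested on simulated data. The mixed-strain course was fitted apart. Of 31 gene lists, members called and medians were counted, with no test of a list. Named are Rest, the 8 largest stage differences in each direction whose 9 single-array effects do not overlap between stages, up to 3 genes per class and direction, and up to 3 called members of each list (1 or 2 where none was called). Predicted genes, chemosensory receptors and small RNAs were left out. The comparison, its lists and the genes were chosen with earlier results of these data known. Promoter sequences come from RefSeq. Alternatives were a replicate block, the 12 arrays alone, leaving out the 30% of genes with the lowest means, averaging or separate use of a gene's probe sets, quantile normalization, array weights, a trended robust fit, removal of chromosome medians, and omission of single arrays.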

Additional observations from a re-analysis of the deposited data

Results flagged for a closer look

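Each result here is a named gene whose knockout effect differed between NP and ES by the test of that difference in limma, so the values are stage differences on the log2 scale (effect at NP minus effect at ES), and how each gene moved is given in the report. The genes were named by size or as list members, so their number is no result.

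The effect turned from lower to higher in RESTko for Kbtbd11 (3.13), Zic2 (1.27) and Dnajc6 (1.12). It turned from higher to lower in RESTko for Tagln (-2.70), Krt8 (-2.57), Krt19 (-2.52), Krt18 (-2.41), Sema3e (-1.68), S100a6 (-1.57), Peg10 (-1.25), Fgf5 (-1.14), Perp (-1.12), Plat (-1.005) and Rdh10 (-1.004). A negative effect was smaller at NP for Smc1b (1.45), Ct55 (1.31) and Micu3 (1.05). A positive effect was smaller at NP for Scg3 (-2.55), Syp (-1.74), Sgcb (-1.60) and Snap25 (-1.11). A positive effect was larger at NP for Lrp11 (1.24), Grb10 (1.18), Pcsk1 (1.12), Cplx1 (0.72) and Cdkn1c (0.64). A negative effect was larger at NP for Bche (-0.79).

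An effect called at ES alone was lower in RESTko there for Ogdhl (1.86), Dnajc5g (1.77), Epha4 (1.71), Nlrp4f (1.49), Prdm14 (0.80), Tagln3 (0.73), Bmi1 (0.73), Arc (0.73), Stard4 (0.71), Hnf4a (0.67), Tcl1 (0.65) and Msi1 (0.57). One called at ES alone was higher in RESTko there for Anxa3 (-2.76), Igfbp3 (-2.30), Thbs1 (-1.66), Acta2 (-1.61), Nnat (-1.58), Cnn2 (-1.53), Ccn1 (-1.25), Atf3 (-1.19), Neurod1 (-1.12), Plk2 (-0.99), Cdk6 (-0.87), Aen (-0.77) and Prom1 (-0.70). An effect called at NP alone was higher in RESTko for Slitrk1 (2.11), Fstl5 (2.11), Srgn (2.07), Iqsec3 (1.79), Th (1.75), Hpgds (1.72), Glra2 (1.67), Gria2 (1.31), Chgb (1.27), Cacng2 (1.25), Glra1 (1.23), Epha5 (1.13), Myt1 (0.97), Hoxb5 (0.83), Kcnh2 (0.71), Insig1 (0.70), Hoxb6 (0.67), Pax7 (0.66), Btrc (0.45) and Csnk1e (0.43). One called at NP alone was lower in RESTko for Adh1 (-1.53), Foxa1 (-1.14) and Cdh5 (-0.74). The stage difference was called with neither effect called for Anxa1 (-2.38), Scn3a (1.21), Crabp1 (1.04), Elavl4 (0.84) and Tet1 (0.41).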

How the results depend on the processing

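The settings changed the number of called genes more than their direction. Of the 970 called genes, 0 had an estimate of the opposite sign in any setting that tested them. Signs were not compared where every probe set was used separately. The settings reuse the same arrays, so this is no independent support. The simple epithelium count stayed at 21 to 26. Of 80 named called genes, 53 kept their call in every setting that tested them and 27 lost it in at least 1. There were 23 settings, but 22 for Dnajc5g, Glra2, Hpgds and Nlrp4f, which the filter on low means removed. With array weights 1537 genes were called, 793 of them more positive. With every probe set counted, 43 were reversed. Over the 12 omissions of 1 array, 651 to 1136 genes were called, 285 to 577 more positive, 38 to 72 reversed, and 14 to 27 RE1 genes more positive. The cause of these changes was not tested beyond the fewer arrays in each such fit.

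The labels do not say what the replicate letters mark. Deviations of same-letter arrays correlated at -0.05 to 0.15 between genotypes at ES, 0.01 to 0.40 at NP and -0.26 to 0.08 across stages, so not every pair varied together and the letters were not taken as a pairing. With the letter as a replicate block, 949 genes were called, 887 of them among the 970. Other settings were added after seeing the data. A replicate block within each stage gave 1126 genes and 103 reversals. Without both ES arrays of letter c, 570 genes were called, 238 more positive and 332 more negative, with 38 reversals and 11 more positive RE1 genes. Without both NP arrays of letter a, 41 were reversed. Arrays have no read depth. Their number limits the precision: the median SE of a stage difference was 0.14 and the smallest called one was 0.31.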

Other observations

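Some reversed genes outside the lists are also known from epithelia; they were chosen here after their values were seen, and their share was not counted. Cgn (from 0.92 at ES to -0.53 at NP), the cingulin gene of tight junctions, and Marveld2 (from 0.54 to -0.79), the tricellulin gene, were among them. So were Ppl (from 0.54 to -0.43), periplakin of the cornified envelope, Rab25 (from 0.56 to -0.46), of apical recycling, and the laminin receptor genes Bcam (from 0.79 to -0.80) and Itga3 (from 1.29 to -0.62). Myc, the growth-promoting transcription factor gene, moved from 1.11 to -0.50. All were called at both stages and for the stage difference in limma.

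Of 739 measured genes on the X chromosome, 67 (9.07%) were called, 50 more positive and 17 more negative, against 3.37% to 7.01% on the autosomes other than chromosome 8. The median effect of X genes was -0.10 at ES and -0.01 at NP, and 32 of the 50 were called at ES alone. Xist, the RNA that coats an inactive X, measured 4.72, 4.61 and 4.60 on the ES RESTwt arrays and 5.04, 4.64 and 5.37 on the ES RESTko arrays. At NP it measured 7.85, 8.34 and 8.76 in RESTwt and 5.77, 7.91 and 8.06 in RESTko, with RESTko array a apart from the other 5. Its stage difference of -1.44 was not called (adjusted p = 0.214, limma). The part of the number of active X chromosomes in these values was not tested.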
